A study of Mus musculus with 73 samples.

Results

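The crypt-type cells were a group of fibroblasts of the mouse jejunum defined by 5 transcripts, *C3*, *C4b*, *Sfrp1*, *Cxcl12* and *Grem1*. A sorted well was kept when it held 400 to 8000 unique molecular identifiers (UMIs, each a counted transcript) and at least 250 genes. A kept cell was called mesenchymal when at least 2 of *Pdgfra*, *Dcn*, *Lum*, *Col1a1*, *Col1a2* and *Col3a1* were detected and the leukocyte gene *Ptprc* was not. It was called crypt-type when its UMIs of the 5 transcripts outnumbered those of *Igfbp6*, *Ly6c1*, *Penk*, *Pi16* and *Cd248* (the Pi16-type score) and those of *Acta2*, *Tagln*, *Myh11* and *Ednrb* (the myofibroblast-type score). By this rule 173 of 325 mesenchymal cells, of 2347 kept wells in all, were crypt-type. Another 68 mesenchymal cells were Pi16-type, 48 were myofibroblast-type, and 36 had no leading score, 15 of them through a tie and 21 because all 3 scores were 0.

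The cells came from the jejunum of male C57BL/6 mice with no transgene or treatment given in their labels, aged 3 months by the labels and somewhat younger by the study's methods. Several ways of dissociating the tissue were used, one of which first scraped the villi away, and the labels do not say which plates came from which, so how much villus tissue the members came from is not known. Cells were sorted into plates by gates on CD45, EPCAM, PDGFRA and, in some, NT5E or CD31, and several gates were set to take doublets, that is a stromal cell attached to an epithelial cell. Some plates were labelled triple negative, and 1 member came from such a plate. Stroma of the same organ was also captured by laser (LCM) from the crypt in 3 mice and from the villus bottom, center and tip in 5 mice, 29 samples in all. The LCM mice were C57BL/6 and aged 3 months by their labels. Jejunum epithelium of control Lgr5 GFP-ires-DTR/+ mice, mock-injected by the study's methods and aged 4 months by the labels, served to pick enterocyte genes. The mice of the plates are called A to H here. Each mouse was sorted on a single day, so mouse and sort day cannot be told apart.

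Fibroblasts around the crypt base supply the stem cell niche. They release Wnt ligands and R-spondins, which keep stem cells dividing, and antagonists of bone morphogenetic proteins (BMPs), which would otherwise drive differentiation. Gremlin 1, the product of *Grem1*, is such a BMP antagonist, *Sfrp1* encodes a secreted Wnt-binding protein, *Cxcl12* encodes the chemokine that binds CXCR4, and *C3* and *C4b* encode complement components. Telocytes are thin PDGFRA-high cells that lie directly under the epithelium and express *Foxl1*, Wnt ligands and BMPs, whereas trophocytes are CD81-positive, PDGFRA-low cells below the crypts that express *Grem1*.

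The 5 transcripts were not shared evenly. Levels are given as UMIs per 10000 UMIs of a class, and since these values chose the cells they are a description and were not tested. Between classes of one mouse the values are sums over cells, and 3 mice had at least 5 crypt-type cells, namely A, E and G. *C3*, on chr17:57203970-57228136 (GRCm38), was the most abundant of the 5 over all members, and in mice A and G but not E, at 24.7, 23.8 and 46.5 in crypt-type cells of mice A, E and G, beside 25.3 and 15.4 in Pi16-type cells of mice A and G. In mouse A the crypt-type and Pi16-type levels of *C3* were thus nearly the same, and no *C3* UMI was found in the myofibroblast-type cells. *Grem1* (chr2:113746164-113758646) was at 4.16, 7.00 and 5.85 in the same 3 mice and had no UMI in either of the other classes. Pooled over cells, *Grem1* was at least 17.9-fold higher than in Pi16-type cells and at least 9.02-fold higher than in myofibroblast-type cells, with a floor of 3 UMIs over each of those classes.

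*C4b* (chr17:34728380-34743882) was at 7.88, 16.8 and 9.10 in crypt-type cells of mice A, E and G. It was at 3.51 and 0.122 in Pi16-type cells of mice A and G and at 0.222 in myofibroblast-type cells of mouse A. The pooled crypt-type to Pi16-type ratio of *C4b* was 14.7 (95% exact interval 6.65 to 40.7), where this and the following intervals cover counting error only. *Sfrp1* (chr8:23411502-23449632) was at 21.7, 29.4 and 13.2, against 3.51 and 0.851 in Pi16-type and 1.11 in myofibroblast-type cells. *Cxcl12* (chr6:117168535-117181367) was at 11.2, 9.79 and 5.98, against 0.703 and 0.122 in Pi16-type cells, where only 2 UMIs were counted. *Cxcl12* differed from the other 4 in that myofibroblast-type cells of mouse A held it at 4.43, and its pooled ratio to that class was 1.78 (1.11 to 3.00).

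**Figure D1:**
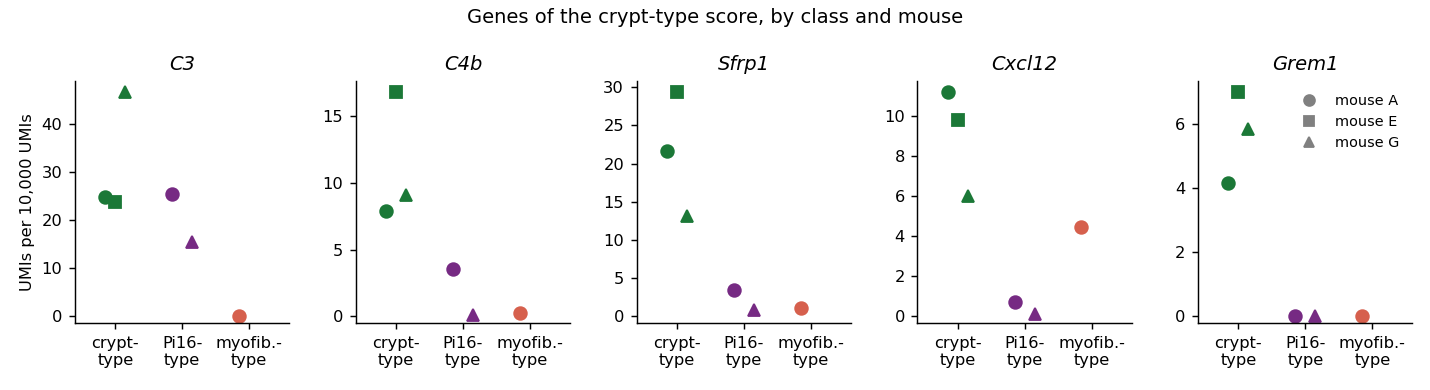
UMIs per 10000 UMIs (vertical axis) of the 5 transcripts that define crypt-type cells, with 1 point per mouse and cell class. *C3* was as high in Pi16-type as in crypt-type cells of mouse A (25.3 and 24.7), whereas *Grem1* was seen in crypt-type cells and had no UMI in the other classes.

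Per cell, *C3* was detected in 76.9% of crypt-type, 67.6% of Pi16-type and 0% of myofibroblast-type cells. *Sfrp1* was detected in 53.2%, 8.82% and 12.5% of these classes, *Cxcl12* in 38.2%, 2.94% and 29.2%, *C4b* in 32.4%, 2.94% and 2.08%, and *Grem1* in 27.7%, 0% and 0%. Epithelial-type cells, which should lack these transcripts, held *C3* and *C4b* in 0.259%, *Sfrp1* in 0.0647%, and *Cxcl12* and *Grem1* in 0%, although their median of 1811 UMIs was above the 1066 of crypt-type cells. They were pooled over 29 plates of 8 mice, while members came from 16 plates of 5 mice. After every cell was thinned to 400 UMIs, a step that left out no kept cell, *Sfrp1* was detected in 35.5% of crypt-type, 4.19% of Pi16-type and 4.19% of myofibroblast-type cells and *Grem1* in 15.0% of crypt-type cells. The median depth was 1255 UMIs in Pi16-type and 848.5 in myofibroblast-type cells. A count of 0 allows a share of cells with a UMI, which is not the share of cells expressing the gene, of up to 4.41% of the 68 Pi16-type, 6.25% of the 48 myofibroblast-type and 0.194% of the 1545 epithelial-type cells.

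Few members had the whole signature detected. Their median depth was 1066 UMIs, so a transcript that was not detected may still have been expressed. A single one of the 5 transcripts was found in 64 crypt-type cells, 2 in 43, 3 in 28, 4 in 29, and all 5 in 9. In 39 cells (22.5%) *C3* was the one detected, and *C3* made up 52.9% of all UMIs of the 5 transcripts. These 39 cells included all 4 members from mouse B and the single member from mouse H, with 8 from mouse A, 1 from mouse E and 25 from mouse G. The 39 *C3*-alone cells differed from the 134 others in transcripts that the rule did not use. *Mfap5*, a microfibril gene, was at 9.65 in *C3*-alone cells and 3.18 in the others, and *Adamdec1*, a secreted metalloprotease gene of lamina propria fibroblasts, at 0.438 and 22.4. *Tmem176b*, a gene of a four-span membrane protein, was at 2.63 and 14.1, and *Mgp*, the gene of matrix Gla protein, at 27.2 and 54.7. The same order was found within mouse G, where *Mfap5* was at 9.61 in *C3*-alone and 3.59 in other cells, *Tmem176b* at 2.88 and 9.70, and *Mgp* at 23.4 and 52.2.

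With *C3* left out of the score, an alternative added after the values were seen, 109 cells stayed crypt-type, 44 became Pi16-type, 1 became myofibroblast-type and 19 had no class. The crypt-type share of mesenchymal cells was 53.2% (exact binomial interval 47.6 to 58.8) with *C3* and 33.5% without it. Calls were also close in many cells. The lead over the next score was 1 UMI in 30 members, 2 UMIs in 27 and more in 116, with a median of 4 and a maximum of 80. The 30 members with a lead of 1 UMI held *C3* at 19.6, *Cxcl12* at 3.93, *Sfrp1* at 3.54, *C4b* at 2.36 and *Grem1* at 0. Just outside, the 15 tied cells held *C3* at 22.1, *C4b* at 3.23, *Cxcl12* at 2.15, *Sfrp1* at 1.61 and *Grem1* at 0, so that cells on both sides of the cut had like levels. The 8 Pi16-type cells that led by 1 UMI held *C3* at 15.5 and *C4b* and *Sfrp1* at 1.41 each.

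Members were spread unevenly over mice and plates. Mouse G gave 114 of them, mouse A 45, mouse E 9, mouse B 4 and mouse H 1, and mice C, D and F gave none. A single plate of mouse G, sorted as PDGFRA-positive singlets, held 99. The crypt-type share of mesenchymal cells was 40.5% (31.3 to 50.3) in mouse A, 69.2% (38.6 to 90.9) in mouse E and 58.8% (51.5 to 65.8) in mouse G. Within mouse A the share was 53.7% (39.6 to 67.4) of 54 cells from the EPCAM and PDGFRA doublet gate, 28.0% (12.1 to 49.4) of 25 cells from the NT5E and PDGFRA doublet gate and 28.1% (13.7 to 46.7) of 32 singlets. In all, 36 members came from doublet gates, and 3 members held a UMI of *Epcam*. Median depth was 942 UMIs in members of mouse A, 664 in mouse E and 1217 in mouse G, and summed depth was 45679, 7147 and 153878 UMIs. The plates shared the same 384 well barcodes by design, and 17 of the 155 barcodes of members occurred in more than 1 member.

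The label given to these cells names telocytes, and the telocyte markers were low in them. The list of telocyte markers, of which 9 of 11 have rows in the table, summed to 4.38, 0 and 7.54 in members of mice A, E and G, to 8.10 over Pi16-type and to 38.9 over myofibroblast-type cells. *Pdgfra*, which is also a gate gene, was at 4.61 over members and at 16.3 over myofibroblast-type cells. *Bmp7* and *Nrg1* had no UMI in any member, *Sox6* had 1, *Bmp5* 2, *Foxf2* 3, *Gli1* 4, *Wnt5a* 11 and *F3* 17. Both *Foxl1* and *Foxf1* were not analysed here. These markers thus did not set the members apart, and the cells are called by their rule.

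Trophocyte markers summed to 19.3, 26.6 and 25.9 in members of mice A, E and G, with 26.9 over Pi16-type and 2.38 over myofibroblast-type cells. *Cd34*, a surface glycoprotein gene, was at 8.32, 15.4 and 10.2 in the members and at 21.8 and 15.8 in Pi16-type cells of mice A and G. *Ackr4*, a scavenging chemokine receptor gene, was at 4.82, 4.20 and 5.39 against 3.51 and 5.47, and had no UMI in myofibroblast-type cells. *Cd81* was at 3.44 over members and 5.20 over Pi16-type cells, and the R-spondin gene *Rspo3* had 5 UMIs in the members. Of this list *Grem1* alone, a rule gene, separated members from Pi16-type cells. Markers of adventitial fibroblasts such as *Ly6a*, *Mfap5* and *Dpp4* summed to 19.3 over members, 68.5 over Pi16-type and 6.74 over myofibroblast-type cells. This list also holds *Pi16* and *Cd248*, genes of the Pi16-type score, so part of that gap was set by the rule. Pan-fibroblast genes such as *Dcn*, *Sparc* and *Serping1* summed to 471, 504 and 495 in members of mice A, E and G, to 346 over Pi16-type and to 160 over myofibroblast-type cells. Of these, *Dcn* and *Lum* were also gate genes.

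**Figure D2:**
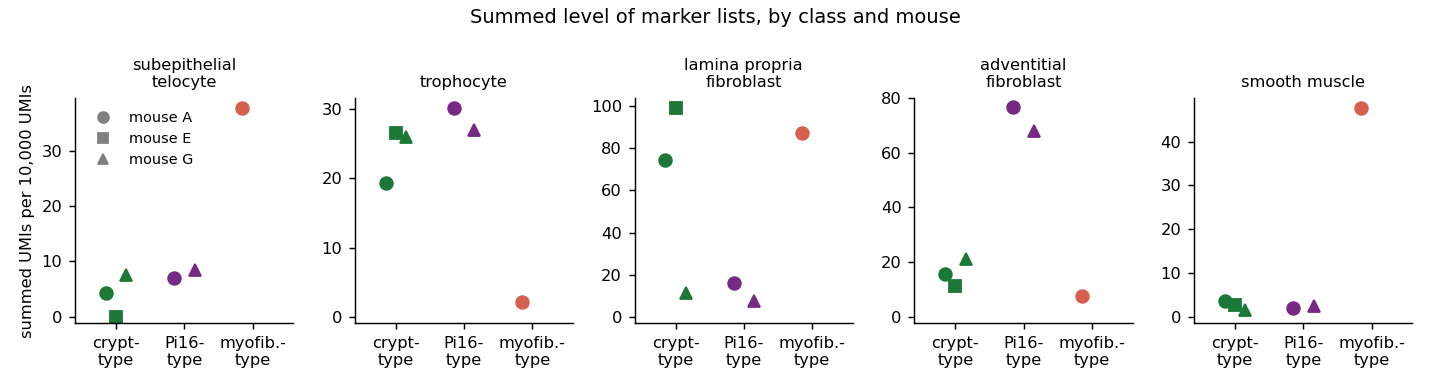
Summed UMIs per 10000 UMIs (vertical axes) of 5 marker lists in crypt-type, Pi16-type and myofibroblast-type cells, with 1 point per mouse and class. In the 3 crypt-type points telocyte markers summed to 0 to 7.54, against 37.7 in the myofibroblast-type point, and adventitial markers to 11.2 to 21.1, against 68.0 and 76.6 in the Pi16-type points. The adventitial list holds *Pi16* and *Cd248*, which the rule used to set the Pi16-type class.

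Markers of other cell types were counted next, though the rule itself held 2 lists down, since it asked for no *Ptprc* UMI and for fewer UMIs of the smooth muscle genes *Acta2*, *Tagln* and *Myh11* than of the crypt-type score. No UMI of 4 enteric glia genes was found. Endothelial markers summed to 0.0942 over members with 1 of 8 genes seen, immune markers to 0.706 with 3 of 9 seen, smooth muscle markers to 2.07 and pericyte markers to 2.97 with all 4 genes of the table seen. The 4 mesothelial genes were found in 6 members, of which mouse G gave 3, mouse B 2 and mouse H 1. Epithelial markers summed to 5.51 over members, 5.70 over Pi16-type and 9.32 over myofibroblast-type cells. The epithelial sum was 6.57, 32.2 and 3.44 in members of mice A, E and G, and its part in the values of mouse E was not tested.

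Among list genes, members spread widely in *Adamdec1* (chr14:68563380-68582095). Its level was 63.3 in members of mouse A, 82.6 in mouse E and 1.82 in mouse G. It was found in 25 of 45 members of mouse A, in 5 of 9 of mouse E and in 11 of 114 of mouse G. Mice A and E were thus both high and mouse G low, and this held on both larger plates of mouse G, at 0 and 2.13. Myofibroblast-type cells of mouse A held *Adamdec1* at 73.3, Pi16-type cells at 5.62 in mouse A and 0 in mouse G, and epithelial-type cells of mouse A at 0.0536.

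Within mouse A the 25 members with an *Adamdec1* UMI held *C3* at 12.2, against 38.3 in the 20 members without one. *Sfrp1* was at 26.5 and 16.4, *Tmem176b* at 32.8 and 11.9, and *Mfap5* at 0.421 and 9.58. *Grem1*, at 4.63 and 3.65, and *Mgp*, at 53.9 and 57.9, were about as high in both. These subsets were set by a transcript of the same cells and are given as a description. Across gates of mouse A *Adamdec1* was at 69.6 in the EPCAM and PDGFRA doublets, 9.48 in the NT5E and PDGFRA doublets and 80.0 in singlets.

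Other transcripts followed the same line between mice. *Aldh1a3*, which makes retinoic acid, was at 4.60, 9.79 and 0.910 in members of mice A, E and G, and *Rgs5*, known as a pericyte gene, at 3.94, 11.2 and 1.56. *Inmt*, an indole methyltransferase gene, went the other way, at 3.28, 0 and 10.7, as did the summed Pi16-type score genes, at 5.69, 2.80 and 15.1. Technical values moved with the same mice. Picked after its values were seen, *mt-Atp6* was at 0, 0 and 13.6, and *Gm42418*, which overlaps ribosomal RNA, was at 836, 1203 and 303. Mitochondrial transcripts summed to 169, 134 and 305. The part of library differences between mice in the spread of *Adamdec1* was not tested.

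**Figure D3:**
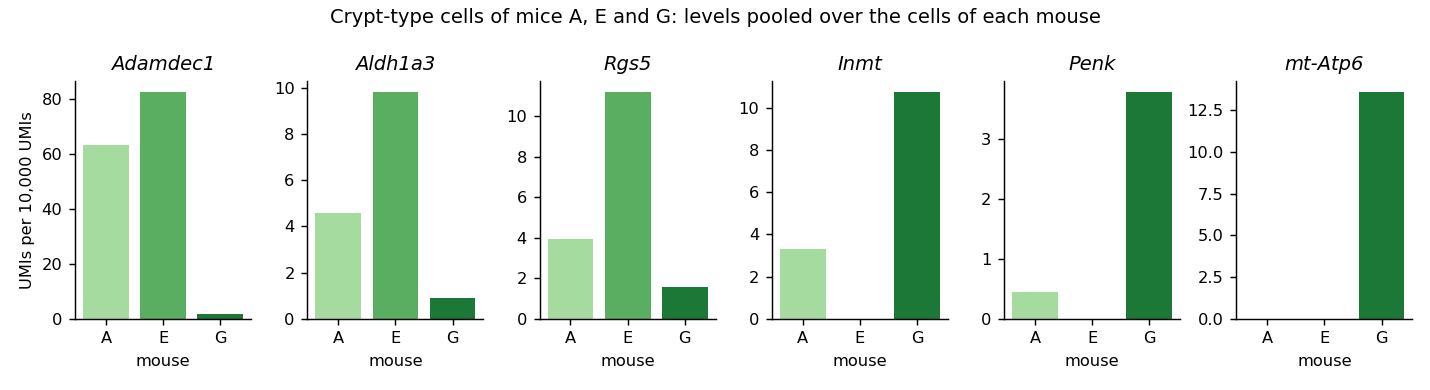
UMIs per 10000 UMIs (vertical axis) of transcripts that varied among members, in crypt-type cells of mice A, E and G. *Adamdec1* was at 63.3 and 82.6 in mice A and E and at 1.82 in mouse G, while *mt-Atp6* was at 0 in A and E and at 13.6 in G.

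Members were then set against Pi16-type cells to see which transcripts outside the rule separated the classes. UMIs were summed per mouse and class, giving 3 crypt-type sums (mice A, E and G) and 2 Pi16-type sums (A and G), and were compared with edgeR's quasi-likelihood test after the genes used by the rule were set aside. Because the classes were drawn from the same cells, this test sets a difference against the spread between mice and is not independent of the rule. Of 4293 genes tested, 3 were called at an adjusted p of 0.05, which is 0.0699% of those tested, all 3 higher in crypt-type cells, and 320 had an unadjusted p under that value. With so few mice, a simulated 16-fold change was recovered in 73 of 100 genes and a 4-fold change in 9 of 100. The changed genes were drawn from the better covered ones and given a single fixed spread. Recovery in sparser genes, or in genes that vary more between mice, was not tested.

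*Tmem176b* was at 22.8, 18.2 and 8.32 in members of mice A, E and G and at 0.703 and 0.729 in Pi16-type cells of A and G. All 3 crypt-type sums lay above both Pi16-type sums, with a log2 difference of 4.35 ± 0.80 (SE) and an adjusted p of 2.0e-04 by edgeR. The neighbouring *Tmem176a*, of the same protein family, was at 9.63, 21.0 and 5.33 against 2.11 and 0, with 3 Pi16-type UMIs and a pooled ratio of 22.6 (7.58 to 111). Its adjusted p was 0.00997 by edgeR. Neither was particular to members, since myofibroblast-type cells of mouse A held *Tmem176b* at 12.6 and *Tmem176a* at 3.32. Thinned to 400 UMIs, *Tmem176b* was detected in 29.4% of crypt-type, 3.12% of Pi16-type, 35.2% of myofibroblast-type and 1.57% of epithelial-type cells. Both calls were lost without mouse A or mouse G, fits that left 1 Pi16-type sum, while the log2 difference of *Tmem176b* was 3.63 and 4.87 there. Both were also lost without doublet gates, which left 1 Pi16-type sum as well (log2 difference 3.84 for *Tmem176b*). A fit without a filter on low counts lost both too, and DESeq2 lost that of *Tmem176a* (adjusted p 0.730).

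The 2 genes lie head to head on chromosome 6, *Tmem176a* on the plus strand at chr6:48840919-48847071 and *Tmem176b* on the minus strand at chr6:48833818-48841496 (GRCm38), so that their annotated 5′ ends overlap. The sequence shared by their RefSeq promoter windows, chr6:48841233-48841387 on the plus strand of GRCm38.p6, is shown because both genes were higher in members together.
Tmem176a and Tmem176b shared window: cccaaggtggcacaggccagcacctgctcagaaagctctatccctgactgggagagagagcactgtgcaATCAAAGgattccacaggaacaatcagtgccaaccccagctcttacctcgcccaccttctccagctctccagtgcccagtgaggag
The capitals mark ATCAAAG, which read on the other strand is CTTTGAT, a form of the site bound by TCF/LEF factors of the Wnt pathway. The motif was picked with the sequence in view, and 2.05% of 32851 promoter windows hold it on either strand. On either strand the shared window had no match to CCAAT (held by 20.7% of windows), to TATAAA (7.47%), to CACGTG (3.01%) or to GGGCGG (17.4%). A match of letters is a description and no evidence of binding.

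*C4a*, the third called gene, was at 6.13, 12.6 and 7.67 in members and at 0.703 and 0.122 in Pi16-type cells, where it rested on 2 UMIs. The pooled ratio was 36.5 (9.93 to 304) and the adjusted p 0.00997 by edgeR. The call was lost without mouse A (log2 difference 5.76), mouse G (3.52) or doublet gates (5.58), each leaving 1 Pi16-type sum. It was also lost without the plate holding most members (3.99, adjusted p 0.391 by edgeR) and without a filter on low counts. *C4a* (chr17:34809092-34823464) lies near *C4b* and is a near copy of it. Of the 60-base words of the *C4a* transcript, annotated as non-coding, 29.7% also occur in *C4b*, so part of its UMIs cannot be told apart from those of a rule gene. In members the counts were alike, at 155 UMIs for *C4a* and 188 for *C4b*.

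Several matrix genes were higher in all 3 crypt-type sums without passing the test. *Mgp* (chr6:136872435-136875823) was at 55.8, 86.7 and 46.3 against 19.7 and 13.0, a log2 difference of 1.88 ± 0.55 (SE) with an adjusted p of 0.389 by edgeR. *Fbln1*, which encodes the matrix protein fibulin 1, was at 25.2, 19.6 and 23.8 against 4.22 and 5.59, with 2.15 ± 0.61 and the same adjusted p. *Bmp4*, a BMP ligand gene, was at 3.28, 4.20 and 1.75 against 0 and 0.122. On the other side, *Mfap5* was at 4.82, 0 and 4.81 against 12.7 and 16.5, with -1.81 ± 0.60 and an adjusted p of 0.506, and *Ly6a* was at 7.66, 9.79 and 10.7 against 31.6 and 26.4. For each of these the sums of the 2 classes did not overlap, which was also so for 20.4% of all genes tested.

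Because mice A and G gave both classes, the mouse could be used as a block. That fit held 2 sums per class and 1 residual degree of freedom, so its p-values lean on a spread shared across genes. The blocked fit called 10 genes (0.233%), 9 higher (0.21%) and 1 lower (0.0233%) in members, and added *Mgp*, *Fbln1*, *Adamdec1*, *Apoe* and *Fmo2* among the higher. In it the log2 difference was 1.80 for *Mgp* (adjusted p 0.0113 by edgeR) and 2.33 for *Fbln1* (adjusted p 4.66e-04). For *Adamdec1* it was 3.98 (adjusted p 1.38e-06), in a fit that held the low mouse G and the high mouse A but not mouse E. With *C3* left out of the score, 12 genes were called (0.299%), 10 higher (0.25%) and 2 lower (0.0499%). *Rgs5*, *Bmp4* and the B-cell chemokine gene *Cxcl13* were then among the higher and *Mfap5*, at a log2 difference of -3.84, among the lower. Without any cell from a doublet gate 1 Pi16-type sum was left, and the log2 difference of *Tmem176b* was 3.84.

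Against myofibroblast-type cells the members differed more widely. The one myofibroblast-type sum of at least 5 cells came from mouse A, so the class had no replicate. All 6 sums entered the fit, its spread came from the crypt-type and Pi16-type sums, and the lone sum was assumed to vary like them. The calls therefore compare the members with the myofibroblast-type cells of 1 mouse. Of 4227 genes tested, 31 were called by edgeR (0.733%), 13 higher in members (0.308%) and 18 lower (0.426%), and without mouse G it called 0, with 63 at an unadjusted p under 0.05. The median log2 difference of all tested genes was 0.24. With *C3* left out of the score, 41 genes were called (1.49%), 16 higher (0.581%) and 25 lower (0.907%). *Mgp* was at 55.8, 86.7 and 46.3 in members and had no UMI in myofibroblast-type cells of mouse A, with 7 UMIs in those of mouse G. Its pooled ratio was 35.1 (17.0 to 87.6) and its adjusted p 7.91e-09 by edgeR. *Fbln1*, at 25.2, 19.6 and 23.8, likewise had no UMI in mouse A and 5 in mouse G, a ratio of 23.6 (10.0 to 72.9) with an adjusted p of 1.77e-05.

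*Gsn*, which encodes the actin-severing protein gelsolin, was at 63.9, 46.2 and 99.2 in members and 3.10 in myofibroblast-type cells of mouse A, a log2 difference of 4.27 ± 0.83 (SE). *Col14a1*, a fibril-associated collagen gene, was at 8.98, 12.6 and 14.9 against 1 UMI, and *Spon2*, a secreted matrix protein gene, against 3 UMIs with a ratio of 12.4 (4.17 to 60.9). *Apoe*, the apolipoprotein E gene, was at 5.91, 1.40 and 8.45 against 1 UMI, with a ratio of 38.0 (6.72 to 1510). Against a class with no UMI, pooled over mice, *Inmt* was at least 14.4-fold, *Fmo2*, a monooxygenase gene, at least 13.6-fold, *Fndc1* at least 9.81-fold and *Mfap5* at least 7.68-fold higher. Members are mostly from mouse G and myofibroblast-type cells mostly from mouse A. Within mouse A, with a floor of 3 UMIs for its own sum, the bounds were 4.94-fold for *Inmt*, 11.5-fold for *Fmo2*, 3.29-fold for *Fndc1* and 7.25-fold for *Mfap5*. *Inmt* and *Mfap5* had no UMI in members of mouse E. *Aebp1*, a collagen-binding protein gene, completed the named higher genes with 1 myofibroblast-type UMI. DESeq2 lost the calls of *Apoe*, *Inmt*, *Fndc1*, *Mfap5*, *Spon2* and *Aebp1*. Without a filter on low counts *Mgp* alone of the named higher genes stayed called.

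The lower genes included 3 BMP genes and a Wnt gene. Those with no UMI in members entered the test through the myofibroblast-type class alone. *Bmp7* had no UMI in the members and 25 in myofibroblast-type cells, which put it at least 35.1-fold lower. *Bmp3* (0 and 13 UMIs) was at least 18.2-fold lower and *Wnt4* (0 and 10 UMIs) at least 14.0-fold lower. *Bmp5* had 2 UMIs in the members and 25 in the other class, a ratio of 52.6 (13.1 to 459) in favour of the latter. *Emid1*, a secreted EMI-domain protein gene, was at least 44.9-fold lower, and the cell adhesion gene *Alcam* at least 23.9-fold lower. *Slitrk6* and *Bean1*, with 9 UMIs each in myofibroblast-type cells, were each at least 12.6-fold lower. *Cav1*, the gene of the caveolar coat protein, had 6 UMIs in members and 27 in the other class, where it was 19.0-fold higher (7.66 to 56.1, adjusted p 9.78e-04 by edgeR), and *Bpgm* had 1 and 15. Within mouse A alone the bounds were lower, at least 10.1-fold for *Emid1*, 7.76-fold for *Bmp7*, 5.74-fold for *Alcam*, 3.71-fold for *Bmp3*, 3.37-fold for *Wnt4*, 3.04-fold for *Slitrk6* and 2.36-fold for *Bean1*. In that mouse *Cav1* was at least 9.11-fold, *Bpgm* at least 4.72-fold and *Bmp5* 11.1-fold lower in members. Without doublet gates the calls of *Bmp7* (log2 difference -7.97) and *Cav1* (-5.59) were lost. Without a filter on low counts *Emid1* alone of the named lower genes stayed called.

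**Figure D4:**
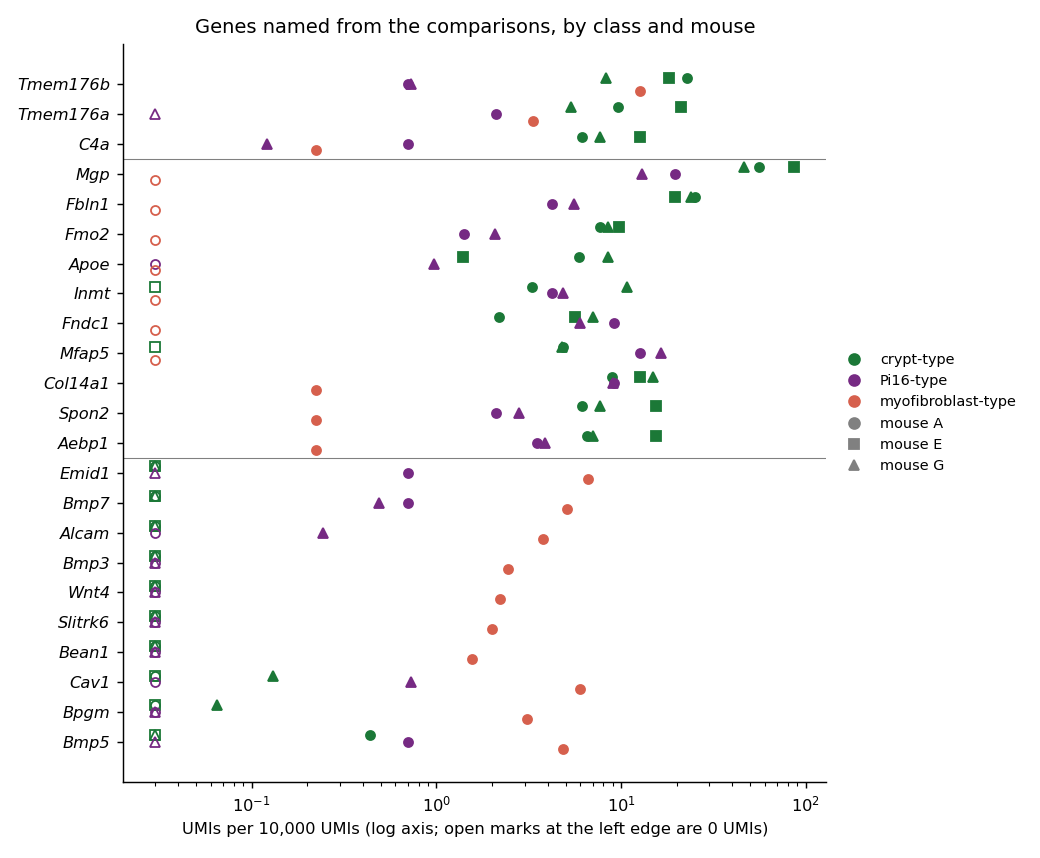
UMIs per 10000 UMIs (logarithmic horizontal axis, open marks at the left edge for 0 UMIs) of named genes in crypt-type, Pi16-type and myofibroblast-type cells, with 1 point per mouse and class. *Tmem176b* and *C4a* lay higher in all 3 crypt-type sums than in both Pi16-type sums, and *Mgp* and *Fbln1* were at 0 in the myofibroblast-type sum of mouse A.

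Of 23 Wnt and R-spondin ligand genes 16 have rows in the table, and these summed to 2.21 over members, 2.70 over Pi16-type and 7.14 over myofibroblast-type cells. *Rspo2*, the gene of a secreted enhancer of Wnt signalling, had 8 UMIs in the members, all from mouse G, and none in the other classes. Of 3 ligand genes tested against myofibroblast-type cells, *Wnt4* was called lower, beside 0.426% of all genes called lower, though it entered the test through that class alone. Of 2 tested against Pi16-type cells none was called. Secreted Wnt antagonists summed to 18.7, 3.50 and 6.54 in the 3 classes, of which the rule gene *Sfrp1* gave 15.2 in members. *Dkk2*, which encodes a Dickkopf inhibitor of LRP co-receptors, had 22 UMIs in members and none in the others, at least 3.45-fold above Pi16-type cells. Of the receptors, *Fzd1* was at 3.50, 1.40 and 2.21 in members of mice A, E and G, at 1.41 and 0.243 in Pi16-type cells and at 0 in myofibroblast-type cells. Its log2 difference from Pi16-type cells was 2.35 ± 1.10 (SE) with an adjusted p of 0.622 by edgeR, and no Wnt receptor or target gene was called in either comparison (5 tested in each).

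For the BMP pathway, ligands of the BMP and TGF-beta family summed to 7.96 over members, 5.70 over Pi16-type and 23.6 over myofibroblast-type cells. Of 8 tested against the last class 3 were called lower and none higher, beside 0.426% of all genes called lower. These 3, *Bmp3*, *Bmp5* and *Bmp7*, had few or no UMIs in members and entered the test through the myofibroblast-type class alone. Their count is therefore a description and no support. Of 5 tested against Pi16-type cells none was called. *Gdf10*, a distant BMP relative, was at 3.20 over members and 3.80 over Pi16-type cells. *Tgfb3* was at 2.41, 2.80 and 1.04 in members and at 1.41 and 0.243 in Pi16-type cells. Antagonists summed to 25.8, 37.3 and 33.1, and *Grem1* was the one gene of that list seen in members with over 10 UMIs and in neither other class. *Fstl1*, a secreted follistatin-like gene, was at 7.01, 4.20 and 13.8 in members and 21.8 and 30.4 in Pi16-type cells, with an adjusted p of 0.622. *Nbl1*, a BMP-binding DAN family gene, was called lower than in myofibroblast-type cells, at 5.91, 1.40 and 4.68 against 21.7 (adjusted p 0.0303 by edgeR).

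Complement genes summed to 120 over members, 56.4 over Pi16-type and 17.1 over myofibroblast-type cells, and 2 of these genes were part of the rule. Of 9 others tested, 8 had a log2 difference above 0 from Pi16-type cells, against 2344 of all 4293 genes tested. *C4a* was the one called, beside 0.0699% of all genes tested. *Serping1*, the C1 inhibitor gene, was at 38.5, 35.0 and 32.8 in members and at 35.8 and 18.5 in Pi16-type cells, so the groups overlapped. *Cfb*, the gene of the alternative pathway protease factor B, had 47 UMIs in members, 1 in Pi16-type and none in myofibroblast-type cells. The classical pathway protease genes *C1s1* (9.93 and 9.30) and *C1ra* (7.91 and 4.50) were near the Pi16-type levels.

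Among chemokines, *Cxcl13* had 27 UMIs in members and none in the other classes, at least 4.24-fold above Pi16-type cells, at 1.75, 5.60 and 0.975 in mice A, E and G. *Ccl11*, the eotaxin gene, was at 6.35, 5.60 and 3.25 in members and at 10.4 in myofibroblast-type cells of mouse A. *Ccl2* went the other way, with 8 UMIs in members and 24 in Pi16-type cells. The stem cell factor gene *Kitl* had 14 UMIs in members and none in Pi16-type cells. None of 9 chemokine and cytokine genes tested was called in either comparison.

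In the matrix, collagens summed to 84.2 over members, 66.9 over Pi16-type and 117 over myofibroblast-type cells. Of 14 tested against the last *Col14a1* was called higher, beside 0.308% of all genes called higher. It entered that test through the members alone, so the count is a description. *Col6a1*, a collagen VI chain gene, was at 16.4, 18.2 and 15.9 in members and at 39.4 in myofibroblast-type cells of mouse A. *Col15a1*, a basement membrane zone collagen gene, was at 3.50, 4.20 and 3.51 in members and at 0 in the latter. *Col18a1* was at 3.50, 2.80 and 1.23 in members and at 0 and 0.122 in Pi16-type cells, and the matricellular gene *Tnc* had 24 UMIs in members and none in Pi16-type cells. Microfibril and elastic fibre genes summed to 80.5, 80.0 and 28.0 in the 3 classes. Among 15 tested, *Fbln1* and *Mfap5* were called higher than in myofibroblast-type cells, beside 0.308% of all genes called higher. Both entered that test through the members alone, so the count is a description. The *Mfap5* call was lost in DESeq2 (adjusted p 0.105), without cells holding a mesothelial gene (0.0577 by edgeR) and with *C3* left out of the score (0.513). Against Pi16-type cells *Fbln1* and *Mfap5* thus lay on opposite sides, and no gene of that list was called. Proteoglycan and matricellular genes summed to 191, 145 and 152, with *Mgp* called higher than in myofibroblast-type cells among 13 tested, beside the same 0.308%. *Mgp* also entered that test through the members alone. *Ogn*, the osteoglycin gene, was at 9.41, 7.00 and 10.7 in members and 35.0 in the latter (adjusted p 0.0566 by edgeR).

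Laminin and nidogen genes summed to 22.1 over members, 31.0 over Pi16-type and 29.3 over myofibroblast-type cells, with none of 6 called in either comparison. Proteases and their inhibitors summed to 72.1, 68.2 and 31.3, with none of 14 called. The stromelysin gene *Mmp3* had 42 UMIs in members, 3 in Pi16-type and none in myofibroblast-type cells, and *Serpine2*, a protease inhibitor gene, had 20 in members and none in the others. *Timp2* was at 9.85, 2.80 and 16.2 in members and at 9.84 and 26.6 in Pi16-type cells, so its groups overlapped. Growth factor genes summed to 58.6, 41.4 and 50.6, with none of 12 called. *Igfbp7*, which encodes a secreted IGF-binding protein, led that list at 41.2, 22.4 and 28.5 in members, against 16.2 and 15.2 in Pi16-type and 36.8 in myofibroblast-type cells. *Angptl2*, an angiopoietin-like gene, was at 3.94, 1.40 and 6.17 against 0.703 and 1.58 in Pi16-type cells. *Aldh1a1*, for retinoic acid synthesis, was called lower than in myofibroblast-type cells, at 2.63, 1.40 and 0.910 against 14.4.

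No LCM value entered the cell rule, and the members' transcripts were looked up along the crypt to villus axis in these data. The study had already reported *Grem1* as higher in the crypt from these sections and used them to name its clusters. Levels of the score genes here are thus no independent support for a crypt position. Values are in ppm of a sample's sum after enterocyte genes were left out, with sections averaged per mouse. A section is bulk tissue, so fewer cells of a type and less RNA per cell cannot be told apart. By limma, 0 of 13537 genes tested (0%) passed an adjusted p of 0.05 between crypt and villus tip, with 441 at an unadjusted p under that value, and 0 between crypt and villus bottom, with 205. With the mouse as a block, a fit that holds mice 1 to 3 alone since mice 4 and 5 gave no crypt, limma called 2 of 11131 genes (0.018%) between crypt and bottom, both lower in the crypt, and 0 between crypt and tip, with 465 at an unadjusted p under 0.05. With 3 crypt and 5 villus mice the smallest p of the exact permutation test was 0.0357.

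*C4b* was at 75.1, 98.2 and 365 ppm in the crypt of mice 1 to 3. At the villus tip of mice 1 to 5 it was at 2.44, 1.25, 125, 2.00 and 0 ppm, and at the villus bottom at 9.37, 36.8, 84.2, 58.0 and 7.01 ppm. The crypt was high in every mouse, and the tip was low in all but mouse 3, which overlapped the crypt range. The log2 difference of crypt over tip was 4.83 ± 1.62 (SE), with a two-sided exact permutation p of 0.107, or 0.268 after Benjamini-Hochberg adjustment over the 5 score genes. Crypt over bottom it was 2.35 ± 1.62, with an exact permutation p of 0.0714 (0.179 adjusted).

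*Cxcl12* was at 4.01, 62.9 and 76.4 ppm in the crypt and at 0.174, 22.1, 10.5, 2.99 and 0.955 ppm at the tip, a log2 difference of 2.62 ± 1.34 with an exact permutation p of 0.107. At the villus bottom it reached 70.0 ppm, and the difference there was 0.18 (exact permutation p 0.893). *Grem1* was at 6.41, 2.37 and 18.4 ppm in the crypt, at 3.66, 0.0468, 0, 0.661 and 2.17 ppm at the bottom, and at 1.01, 0, 9.11, 1.97 and 5.68 ppm at the tip. Its crypt values overlapped those of both other zones, with log2 differences of 2.04 from the bottom (exact permutation p 0.0714) and 1.24 from the tip (0.25). *C3* ranged from 2.45 to 228 ppm among 3 crypt samples and from 0.347 to 163 ppm at the tip (1.18 ± 1.96, exact permutation p 0.607). *Sfrp1* was at 3.14, 13.4 and 31.3 ppm in the crypt and reached 28.0 ppm at the bottom and 28.8 ppm at the tip (exact permutation p 0.50 and 0.286). At the villus center *C3* was at 687, 0.322, 325, 222 and 0 ppm in mice 1 to 5, *C4b* was at 0 in 3 of 5 mice and at 93.7 and 126 ppm in the others, and *Cxcl12* lay between 0.522 and 281 ppm. Neither *C3* nor *Cxcl12* was thus confined to the crypt. Mice 1 to 3 gave both crypt and villus, so the zones could also be set side by side within a mouse, where the two-sided exact sign-flip test over 3 mice cannot go below 0.25. *C4b* and *Grem1* were higher in the crypt than at the tip and at the bottom in each of the 3 mice. *Sfrp1* and *Cxcl12* were higher than at the tip in all 3, and *C3* than at the bottom in all 3. Of all genes tested, 14.2% were higher in the crypt than at the tip in each of the 3 mice and 12.3% than at the bottom. The mean log2 difference within mice was 3.82 for *C4b* and 1.53 for *Grem1* from the tip, and 2.12 and 2.21 from the bottom. Over all mice, all 5 had a higher mean log2 value in the crypt than at the bottom or the tip, and none passed the test. Within mice 1 to 3 the mean log2 difference was -0.17 for *C3* from the tip and -0.43 for *Sfrp1* from the bottom. At the center the mean was above that of the crypt for *C3* (247 against 105 ppm) and *Cxcl12* (64.5 against 47.8 ppm). It was below the crypt mean for *C4b*, *Sfrp1* and *Grem1*.

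**Figure D5:**
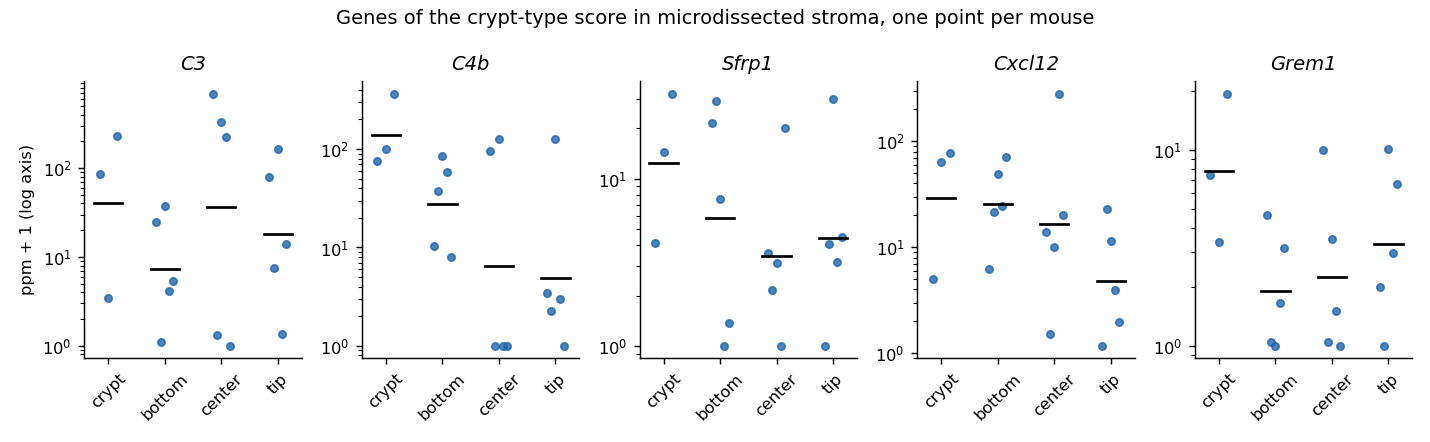
LCM level (logarithmic vertical axis, ppm + 1) of the 5 score genes in crypt, villus bottom, villus center and villus tip, with 1 point per mouse and a bar at the mean of the log values. *C4b* was at 75.1 to 365 ppm in the 3 crypt mice and at 0 to 2.44 ppm in 4 of 5 villus tip mice, with mouse 3 at 125 ppm.

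The genes that separated members from other cells in the plates were looked up in the same sections. *Mgp* was at 180, 954 and 1072 ppm in the crypt and at 49.9, 9.27, 57.0, 0 and 14.7 ppm at the villus bottom. These groups did not overlap, as for 2.38% of all genes tested against the bottom, with a log2 difference of 5.38 ± 2.20 and an exact permutation p of 0.0357, the smallest this design can give. At the tip *Mgp* was at 37.5, 1233, 504, 0 and 0 ppm, which overlapped the crypt. *Aebp1*, at 5.84, 12.6 and 11.3 ppm against 3.04, 0.209, 4.14, 3.99 and 0 ppm, did not overlap either and had the same p. *Tmem176b* was at 52.0, 121 and 134 ppm in the crypt, but at 868, 380, 327, 89.8 and 232 ppm at the villus bottom and at 24.0, 24.9, 84.5, 1.36 and 24.5 ppm at the tip. It was thus lower in the crypt than at the bottom (log2 difference -1.63, exact permutation p 0.107) and higher than at the tip (2.25, 0.0714), with neither passing the test.

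*C4a* was at 2.01, 0.938 and 0.544 ppm in the crypt and at 0.928, 1.51, 1.94, 12.2 and 10.2 ppm at the tip, so that its log2 difference of crypt over tip was -1.15 (exact permutation p 0.25), opposite in sign to its difference in the cells. Its mean was 4.18 ppm in the center. In the crypt *C4b* averaged 179 ± 161 ppm (SD, n = 3), far above *C4a*, although the members' UMIs of the 2 genes were close. The cells and sections were processed with different counting tools, and their part in this difference was not tested. The 27 named genes mixed the score genes and genes higher in members with genes lower in members than in myofibroblast-type cells. A count or median over all of them therefore does not place the members along the axis. Of the 27 genes 25 could be tested in the sections, and 17 of them lay above 0 for crypt over tip. None of the 25 was free of overlap (background 2.47%). Against the bottom 14 lay above 0, and *Mgp* and *Aebp1* were the 2 without overlap. The median log2 difference of the 25 was 1.22 from the tip and 0.29 from the bottom, beside -0.04 and -0.14 over all genes tested.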

How the data were processed

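The authors sorted single jejunal cells for MARS-seq and deposited UMI counts for every well, counted by zUMIs against GRCm38 and not normalized. For the LCM sections the authors deposited TPM values made by kallisto and sleuth on coding transcripts, from which no depth can be read. The submitters' processing notes name bcl2fastq 2.15.0.4. Of 12698 wells, 352 matched no sample and were not used, 8822 of the rest were under the UMI minimum and 75 over the maximum. Empty wells were not identified, no background was subtracted, and doublets were not called because several gates took attached cells on purpose.

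UMIs were summed per mouse and class with at least 5 cells and compared with edgeR 4.0.16 (TMM, robust quasi-likelihood test, Benjamini-Hochberg adjustment). Genes needed a mean share above 1e-05 and a UMI in over 5 cells of a class. A gene seen almost only in a single class thus entered through that class, so counts of called list genes are a description. A fold against a class without UMIs used a floor of 3 UMIs over the class. In the LCM table, 379 enterocyte genes, those making up the most abundant share of 0.5 of UMIs of control epithelium from Lgr5 GFP-ires-DTR/+ mice, were left out, genes above 0.01 of a sample were left out of scaling, and genes had to exceed 5 ppm in a zone mean. Zones were compared with limma 3.58.1 (trend) on log2(ppm + 1), a scale that understates folds of low genes, and single genes with a two-sided exact permutation test over mice. The 104 gene names listed more than once were told apart by identifier. Promoter windows came from RefSeq.

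The members and lists were chosen with earlier results of these data known. Named genes are rule and list genes, and up to 10 higher and 10 lower called genes per cell comparison with the largest log2 difference and the same direction in every mouse with both classes. Pairing by mouse follows from the labels. Deviations from class means correlated at 0.183 between classes of one mouse over 1910 genes, and in the sections at 0.285, 0.164 and -0.033 between crypt and tip of mice 1 to 3 and at 0.222, 0.211 and 0.055 between crypt and bottom. Nothing states separate cultures or pools, so p-values measure the spread between these mice. On simulated data with the same fixed spread and better covered genes, edgeR recovered 51 of 100 16-fold changes in the myofibroblast-type design. The alternatives were DESeq2 1.42.0, RLE factors, no filter, the mouse as a block, each mouse left out, other cell minimums, margins and gates, other pseudocounts and the enterocyte genes kept.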

Additional observations from a re-analysis of the deposited data

Results flagged for a closer look

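Among 24 groups of 5 mice in the LCM data, 7 held a mouse far from the others of its zone. A mouse was flagged when its gap to the nearest other mouse exceeded 0.71 of the range. The usual chance rate of this cut, about 1 in 20 groups, assumes a normal spread. These ppm values were skewed, some with zeros, so how many groups chance would flag is not known. Mouse 3 stood above the other 4 at the villus tip for *C4b* (125 ppm), *Sfrp1* (28.8 ppm) and *Tmem176b* (84.5 ppm). At the villus center, *Cxcl12* was at 281 ppm in mouse 4, *Sfrp1* at 19.0 ppm in mouse 5 and *Grem1* at 9.03 ppm in mouse 1, each above the rest, and *Tmem176a* was at 0.821 ppm in mouse 4, below the rest.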

How the results depend on the processing

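The cell comparisons rest on few mice. Against Pi16-type cells, where 3 genes were called, DESeq2 called 5, RLE factors 6, 10 or more cells per class 7, and both no filter on low counts (367 unadjusted) and leaving out doublet gates (218) 0. The mouse as a block (replicate block) gave 10, *C3* left out of the score 12, and leaving out a mouse 0 to 7. edgeR called none without mouse A (69 at an unadjusted p under 0.05) or mouse G (13) and 7 without mouse E. Against myofibroblast-type cells, with 31 called, DESeq2 called 13 (10 higher and 3 lower, against 13 and 18), no filter 2, 10 or more cells per class 56, no doublet gates 7 and a margin of 2 UMIs 50. Leaving out a mouse gave 0 to 56, with 0 without mouse G (63 unadjusted) and 56 without E. The block and the fit without mouse A could not be fitted there. The cause of these shifts was not tested, except that fewer mice enter when one is left out. Leaving out doublet gates likewise left 1 Pi16-type sum. Asking for 10 or more cells dropped mouse E, so it was the same fit as the one without mouse E. In the LCM data, dropping the filter gave 2 calls for each zone, and the replicate block, which also leaves out villus mice 4 and 5, gave 2, both lower in the crypt, at the bottom and none at the tip. Every other alternative run gave 0 calls there. The crypt-type share moved from 53.2% to 44.0% with a margin of 2 UMIs, 33.5% without *C3* in the score and 47.1% without the plate with most members.

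Of single genes, the direction turned for *C3* between crypt and tip in the replicate block of mice 1 to 3 (-0.17 on the log2 scale) and for *Sfrp1* between crypt and bottom in the same fit (-0.43). Both were turned by leaving out mice 4 and 5, since a block leaves the estimate of complete pairs as it is. The direction also turned for *Cxcl12* between crypt and bottom when a mouse was left out (-0.46 to 0.93, with -0.46 without mouse 2 and -0.29 without mouse 3). Depth limits what a single cell shows, since members had a median of 1066 UMIs.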
